A study of Mus musculus with 62 samples.

Results

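The genes described here build, power or supply cilia. They were taken by symbol: protein-coding genes of the dynein arm (Dnah, Dnai, Dnali), cilia and flagella associated protein (Cfap), radial spoke (Rsph), intraflagellar transport (Ift), Bardet-Biedl (Bbs), tektin (Tekt), sperm associated antigen (Spag), Iqca and dynein regulatory complex (Drc) families, with Foxj1, Ccdc153, Tmem212, Dynlrb2, Mlf1, Ak7, Hydin and 1110017D15Rik. The annotation holds 106 such genes, and 78 of them were among the 12483 genes of the deposited counts. They fall into 51 motile genes, 22 transport genes (14 Ift and 8 Bbs genes) and 5 others (Cfap20, Cfap36, Cfap97, Spag7 and Spag9), whose products are not particular to motile axonemes. The other 28 were not analysed here.

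A motile cilium beats because dynein arms slide its outer microtubule doublets past each other, while radial spokes, the nexin-dynein regulatory complex and a central pair of microtubules shape the stroke. In the adult brain such cilia are carried mainly by ependymal cells, which line the ventricles. Neurons and astrocytes carry a single primary cilium, which lacks dynein arms and serves in signalling. Intraflagellar transport trains and the BBSome, built of Ift and Bbs proteins, carry cargo in both kinds of cilium. The suprachiasmatic nucleus (SCN), the principal circadian pacemaker, borders the third ventricle.

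The study exposed C57BL/6J mice to circadian rhythm disruption (CRD), a shifting of the light cycle, or to control conditions, and asked whether lasting expression changes follow. The mice were of both sexes and bred in house, CRD reversed their light-dark cycle repeatedly, and controls were handled alike on a fixed cycle. Tissue was punched from frozen brains at ZT6, which is 6 h after lights on, from individual mice with a history of CRD or from matching controls. The study's methods give CRD in adolescence for these mice, and the labels name CRD in adolescence and in adulthood. The 62 libraries came from the SCN (n = 19), the nucleus accumbens (NAc, n = 26) and the prefrontal cortex (PFC, n = 17) of 26 mice. Region and mouse number are labelled, but neither CRD or control nor sex, so every value below is taken over all libraries of a region, whatever their treatment. Total counts per library lay between 16496666 and 35389742 for the SCN, between 28879724 and 60009482 for the NAc, and between 31216225 and 50333579 for the PFC. SCN J1199 and SCN J1140 stood apart by their striatal neuron markers (5 genes), which summed to 489.5 and 236 CPM (counts scaled to a common library size), against 38.2 to 62.6 CPM in the other SCN libraries. SCN J1165 held 47.2 CPM of Xist, while the libraries with its mouse number held 0.617 CPM for the NAc and 0.390 CPM for the PFC. NAc J1199 had the highest sum of 6 cortical neuron markers in the NAc, 467 CPM against a median of 99.8 CPM. Punches are bulk tissue, so a lower level cannot be told apart as fewer cells of a type or less RNA per cell.

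The motile genes were held mostly by the SCN table. The SCN was deposited apart from the NAc and PFC, and 35 of the 51 motile genes (68.6%) were in the SCN table alone, among them Foxj1, Ccdc153, Tmem212, Hydin and 8 of the 11 Dnah genes. Of the 22 transport genes, 1 (4.55%, Bbs12) was in the SCN table alone, and so were 914 of the 12047 SCN rows overall (7.59%). The deposited counts are labelled as filtered. The study's methods kept genes above 1 CPM in 50% or more of each group's subjects, region by region. They give fewer SCN genes after filtering than the 12047 SCN rows, and which filter set the deposited rows was not tested. The SCN-only genes are not analysed here in the NAc and PFC, and no level is stated for them there.

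Foxj1, the transcription factor that switches on the motile cilium program (ENSMUSG00000034227, GRCm38 chromosome 11, 116330704 to 116335399), lay over the SCN libraries between 2.30 and 20.1 CPM (median 9.21 CPM), on counts of 58 to 968. SCN J1140 was lowest and SCN J1011 highest, with the remaining libraries spread between them. The ependymal genes of the rule covered wide ranges as well. Ccdc153 (chromosome 9, 44240676 to 44247306), a coiled-coil gene and a standard ependymal marker, ran between 2.33 and 34.0 CPM (median 14.7 CPM). Tmem212 (chromosome 3, 27866066 to 27896368), a membrane protein gene marking the same cells, ran between 0.0583 and 8.80 CPM (median 2.46 CPM), and its lowest value rests on 2 counts. SCN J1140 was the lowest library for both, with SCN J1011 highest for Ccdc153 and SCN J1017 for Tmem212.

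The 8.73-fold span of Foxj1 was passed by Ak7, Mlf1, Hydin, 1110017D15Rik and Iqca, and that of Dynlrb2 was 7.42-fold. Ak7, an adenylate kinase of the axoneme, ran between 1.23 and 17.1 CPM (median 9.18 CPM). Mlf1 ran from 0.817 to 12.4 CPM (median 5.92 CPM), and Dynlrb2, a roadblock-type dynein light chain, from 1.05 to 7.80 CPM (median 3.09 CPM). SCN J1140 was lowest in all 3. Hydin, a protein of the central pair, ran between 0.729 and 12.4 CPM (median 3.20 CPM). 1110017D15Rik ran between 0.295 and 6.40 CPM (median 1.42 CPM). Iqca, an IQ-motif ATPase of the nexin-dynein regulatory complex (chromosome 1, 90042132 to 90153401), had the widest span among members counted in every library, from 0.0441 CPM (1 count, SCN J1018) to 6.78 CPM (SCN J1157), around a median of 1.82 CPM. Over the 51 motile genes, SCN J1140 was the lowest library for 30, while SCN J1157 was highest for 20, SCN J1011 for 16 and SCN J1017 for 12. SCN J1157 was highest for 7 of the 11 Dnah genes and for 10 of the 22 transport genes. It was also the library with the most counts and with the smallest share of mitochondrial ribosomal RNA, 20.5% against a median of 38.2%, and the part of these in its levels was not tested.

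Compared per kb of exon, so that long and short genes can be set side by side, the motile genes spanned 2 orders of level. The highest medians in the SCN were those of Cfap298, a dynein assembly factor (10.6 CPM per kb), Rsph9, a radial spoke head protein (10.5 CPM per kb), and Ccdc153 (7.23 CPM per kb). The lowest were the inner-arm dynein heavy chains Dnah3 (0.0990 CPM per kb), Dnah2 and Dnah10 (both 0.146 CPM per kb). Foxj1 stood at 3.51 CPM per kb. Transport genes were closer together: Bbs9, a BBSome subunit, was highest at 8.51 CPM per kb, followed by the IFT-B train subunits Ift81 (6.95) and Ift20 (6.69), and Bbs12, a chaperonin-like gene, was lowest at 0.640 CPM per kb, below Ift122, of the retrograde IFT-A train (1.07), and Bbs10 (1.40). The median gene had 1.28 CPM per kb among the motile genes and 2.97 CPM per kb among the transport genes. Cfap298 shares 53.6% of its exon bases with genes on the opposite strand, and Tekt2 20.8%. Without strand, the gene such reads came from cannot be told apart. Of the 78 genes, 54 share no exon base with another gene. Dnah7a with Dnah7b, and Rsph3a with Rsph3b, are near-identical copies, so the split of reads between them is uncertain.

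Across the 19 SCN libraries the motile genes varied widely and the transport genes little. The summed level of the motile genes ran from 157 CPM in SCN J1140 to 574 CPM in SCN J1011 (median 323 CPM), a 3.66-fold span, and that of the motile genes held by the SCN table alone from 55.5 to 369 CPM, a 6.65-fold span. The transport sum ran from 309 to 416 CPM (median 345 CPM), a 1.35-fold span. Per gene, the median ratio of the highest to the lowest library was 7.18 for motile and 1.99 for transport genes. As a description, the median Pearson r between pairs of genes over the 19 libraries, on the log2 CPM scale, was 0.67 within the motile group, 0.19 within the transport group and 0.35 between them. In the 7 SCN libraries of mice up to J1021 these medians were 0.80, 0.28 and 0.52, and in the 12 libraries from J1140 on they were 0.65, 0.18 and 0.29. Without SCN J1199 and SCN J1140 they were 0.64, 0.21 and 0.37. The pairs share libraries and depth, and low-count genes carry more counting error, which differs between the groups: 29 of 51 motile and 4 of 22 transport genes had a median under 5 CPM.

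**Figure D1:**
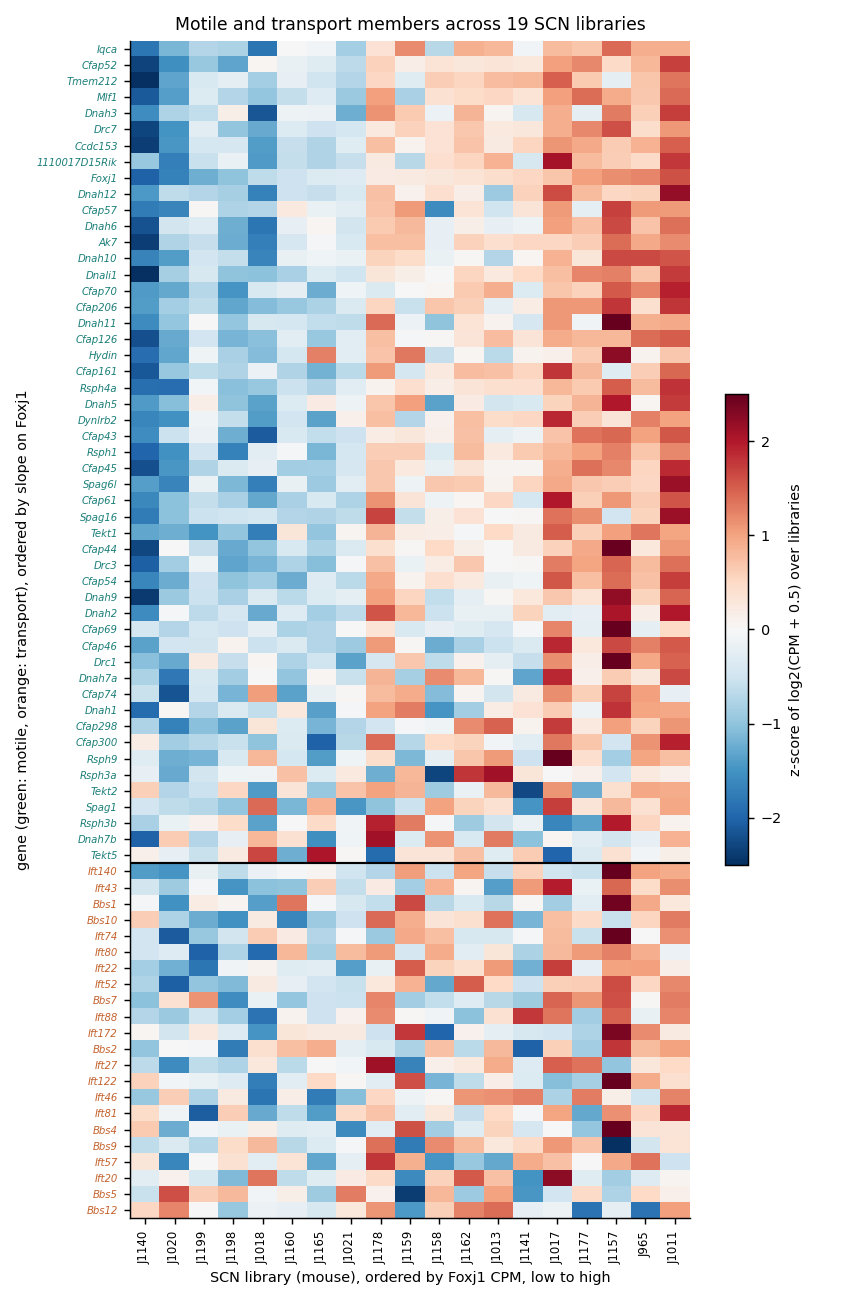
Each row is a gene and each column an SCN library, ordered from low to high Foxj1 (2.30 to 20.1 CPM); colour is the z-score of log2(CPM + 0.5) over the 19 libraries, with motile genes above the black line and transport genes below it, both ordered by their slope on Foxj1. Most motile rows turn from blue on the left to red on the right, while the lowest motile rows and the transport rows turn less evenly, with a high SCN J1157 column in many of them.

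Which genes varied with Foxj1 was tested gene by gene, as a slope: the log2 change of a gene per log2 unit of Foxj1. In edgeR's quasi-likelihood fit over the SCN table, 38 of the 50 motile genes other than Foxj1 had a positive slope (Benjamini-Hochberg adjusted p below 0.05) and 0 had a negative one, against 1 of 22 transport genes and 0 of the 5 others. Of the 12046 genes tested 2.34% were called, 1.62% with a positive and 0.722% with a negative slope. The median slope was 0.73 for motile genes, 0.12 for transport genes and 0.01 for all genes. Of the 34 motile genes held by the SCN table alone 31 were called, and of the 16 held by both tables, 7 were. Of the 50 motile genes 0 had a negative slope even at an unadjusted p under 0.05, and 1 of the 5 others a positive one, while DESeq2 called 0 of either. The difference between the groups of genes was not tested.

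The 5 steepest called slopes were those of Iqca, Cfap52, Tmem212, Mlf1 and Dnah3. Iqca had a slope of 1.59 (SE 0.274, adjusted p = 0.0015 by edgeR), which is 3.01-fold per doubling of Foxj1. Cfap52, a protein of the doublet lumen that ran from 0.321 to 9.56 CPM (median 3.60 CPM), followed at 1.22 (SE 0.122, adjusted p = 4.2e-06). Tmem212 had a slope of 1.16 and Mlf1 one of 1.10. Dnah3, which was at 0 counts in SCN J1018, allowing up to 0.132 CPM (3 counts, for counting error only), and reached 6.13 CPM in SCN J1011 around a median of 1.42 CPM, had a slope of 1.09 (SE 0.260, adjusted p = 0.024). Ccdc153 (1.04), 1110017D15Rik (1.02) and Ak7 (0.98) changed about in proportion to Foxj1, with Hydin at 0.83 and Dynlrb2 at 0.77. All of these passed the test. The call of Dnah3 was lost without SCN J1140 (slope 0.99) and without SCN J1011 (1.02), and that of Hydin without any 1 of 7 libraries, at slopes from 0.64 without SCN J1157 to 0.82.

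By structure, called slopes were found for genes of the dynein arms, radial spokes, regulatory complex, doublets and central apparatus. Dynein heavy chains were called in 8 of 11 cases, including the outer-arm chains Dnah5 (0.77), Dnah9 (0.55) and Dnah11 (0.89) and the inner-arm chains Dnah12 (1.01), Dnah6 (1.0) and Dnah10 (0.98). Dnah1, Dnah7a and Dnah7b were not called, at 0.24, 0.38 and 0.10. The light intermediate chain gene Dnali1 had a slope of 0.95. Of 5 radial spoke genes the head proteins Rsph4a (0.79) and Rsph1 (0.75) were called, whereas Rsph9 (0.18), Rsph3a (0.16) and Rsph3b (0.12) were not. All 3 Drc genes were called, Drc7 at 1.08, Drc3 at 0.56 and Drc1 at 0.38. Among tektins, filament proteins inside the doublets, Tekt1 was called at 0.63, and Tekt2 (0.16) and Tekt5 (-0.09) were not. The central apparatus genes Spag6l (0.68) and Spag16 (0.64) were called. Spag1, whose product helps assemble dynein arms in the cytoplasm, was not, at 0.14. Thus 12 motile genes did not pass: besides those named they were Cfap69 (0.45), Cfap74 (0.29) and Cfap300 (0.21).

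**Figure D2:**
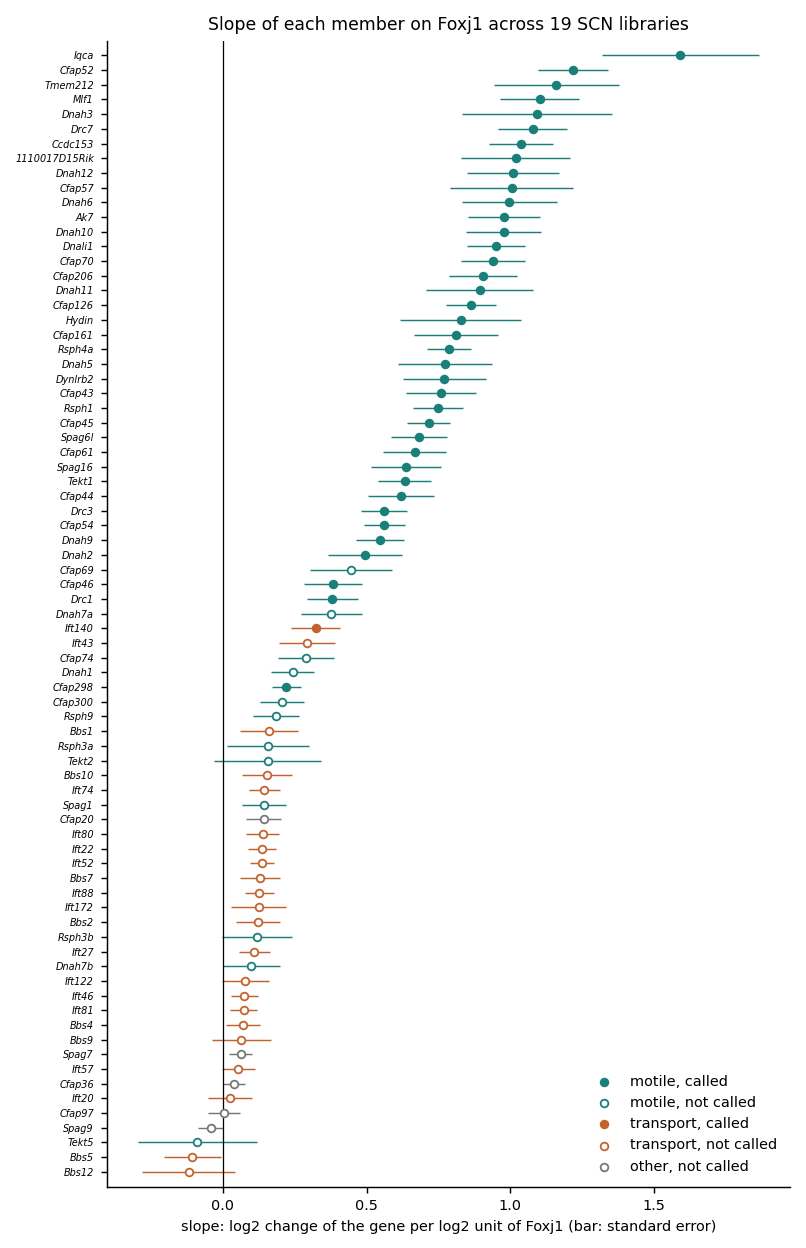
Points are slopes of log2 level on log2 Foxj1 over 19 SCN libraries, bars are standard errors, and filled points passed an adjusted p of 0.05; green marks motile, orange transport and grey other genes. Motile genes run from -0.09 for Tekt5 to 1.59 for Iqca, and transport genes lie between -0.12 for Bbs12 and 0.32 for Ift140, the only filled orange point.

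Transport genes had small slopes. Ift140, an IFT-A subunit that ran from 8.61 to 26.3 CPM around a median of 12.3 CPM, was called at 0.32 (SE 0.0844, adjusted p = 0.045). Its highest library was SCN J1157, and its call was lost without that library, without SCN J1140 and without several other single libraries. Ift88, the IFT-B subunit often used to disrupt cilia in mice (chromosome 14, 57424062 to 57517936), ran from 13.7 to 22.2 CPM around 17.3 CPM. Its slope was 0.13 (SE 0.0498, adjusted p = 0.24). Of the 22 slopes 20 were above 0, and the 2 below were those of Bbs12 (-0.12) and Bbs5 (-0.11).

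**Figure D3:**
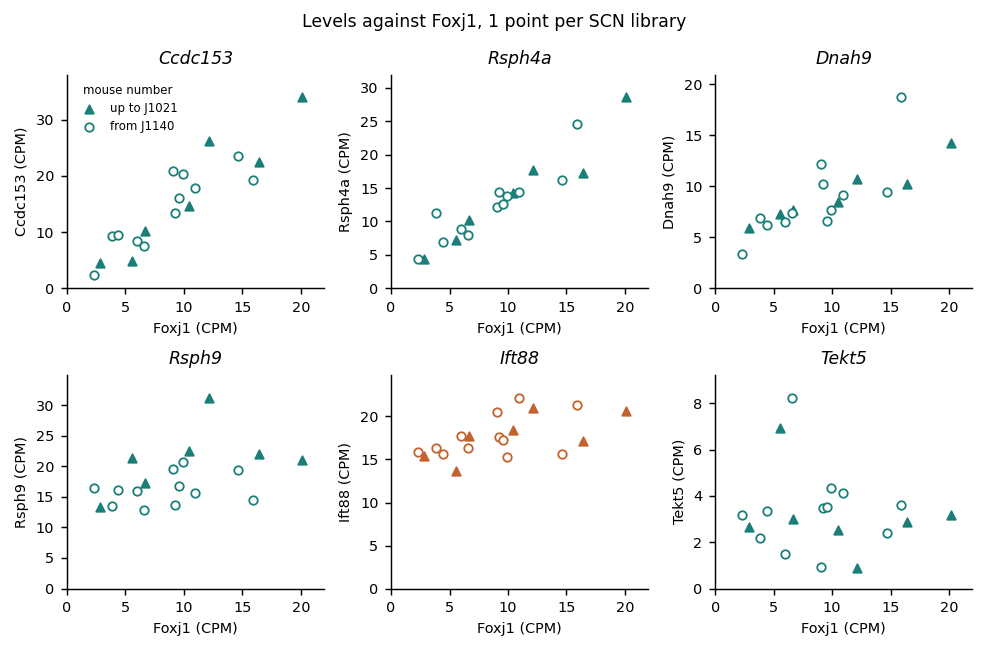
Each panel plots the CPM of a gene against the CPM of Foxj1, 1 point per SCN library, with triangles for mice up to J1021 and circles for mice from J1140. Ccdc153, Rsph4a and Dnah9 climb with Foxj1, Ift88 stays between 13.7 and 22.2 CPM, Rsph9 reaches its highest value at a middling Foxj1 level, and Tekt5 shows no order.

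The called members depended on the libraries in number. Within the 7 libraries of mice up to J1021, 9 members were called (0.208% of genes), and within the 12 from J1140 on, 24 (1.08%). Every one was motile in both. Without SCN J1199 and SCN J1140, 34 were called, and without SCN J1165, 36. Leaving out SCN J1140 and SCN J1020, the libraries farthest from the median of Foxj1, gave 26. Leaving out 1 library at a time gave 32 (without SCN J1140) to 39. With a score of motile genes outside the rule in place of Foxj1, 40 members were called, 37 of them shared.

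Genes outside the rule gave the following counts on the same slope. Of 37 listed motile cilium genes outside the rule 23 were called with a positive slope and 0 with a negative one. Of 6 ependymal markers outside the rule 5 were held, and all 5 were called: Rarres2 (0.84), Calml4 (1.35), Fam183b (0.55), Sntn (1.13) and Tppp3 (0.42). Fam183b, Sntn and Tppp3 are also among the 37 listed motile genes, and Mia was not held. Of 54 primary cilium genes outside the rule 2 were called, among them the transition zone gene Tctn2 (0.28). Among the regulators of multiciliated cells held, Myb (0.96) and Rfx2 (0.67) were called, and Rfx1, Rfx3 and Rfx4 were not. Choroid plexus markers (0 of 2), astrocyte markers (0 of 5), oligodendrocyte markers (0 of 7) and SCN neuron markers (0 of 9) were not called by edgeR or DESeq2, and of these 1 SCN neuron marker had an unadjusted p under 0.05. Lower levels with higher Foxj1 were called for 3 of 5 striatal neuron markers, among them Ppp1r1b (-1.35) and Pde10a (-0.78). These belong to the list that set SCN J1199 and SCN J1140 apart. Of 2 tanycyte markers held, Dio2 was called lower (-0.96) and the other was not called (0.23). Their sum was highest in SCN J1199 and SCN J1140 (21.1 and 17.1 CPM, SCN median 3.99 CPM). The 1 tanycyte marker held by both tables was lower in the SCN than in the NAc (-4.03) and PFC (-4.73). The part of striatal and tanycyte markers in the members' slopes was not tested. Of the 195 genes called with a positive slope, 39 were members, 23 listed motile genes and 133 in neither list. The 133 include Rarres2, Calml4, Myb, Rfx2 and Tctn2, so being in neither list does not set a gene apart from cilia.

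The genes most like Foxj1 in pattern included many of the axoneme. By Pearson r of log2 CPM over the 19 libraries, which share depth and scaling, Enkur was nearest (0.95), and Cfap52, Cfap126 and Rsph4a came next (0.94 each). The other 4 nearest genes outside the rule were 2410004P03Rik (0.92), Ccdc180, 1700001C02Rik and 1700007K13Rik (0.91 each). The 50 genes nearest to Foxj1 held 18 motile members, 9 listed motile genes outside the rule and 0 transport members.

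Because 38 motile genes had called slopes, the promoters of the members were searched for short letter patterns bound by regulators of cilium genes. RefSeq promoters of GRCm38.p6, from 250 bases before to 50 bases after the start site, matched 68 of the 78 members. The X-box, the palindromic element read by RFX factors, was searched on both strands as the arm GTTNCC, 3 bases of any kind (NNN) and the arm GNAAC. It was held by 7 of the 34 motile members with a called slope (20.6%), by 0 of 11 without one, and by 1 of 19 transport members, against 0.936% of all 27025 genes with a promoter (0.804% of 32851 promoters). The windows below are the 50 bases around each match in the sense of the gene, with the match, on either strand, in capitals, and they are shown because they include the promoter of the gene with the steepest slope, Iqca, and the single transport match, Bbs7. The windows lie, on GRCm38.p6, for Iqca at chr1:90153505-90153554 (minus strand), Hydin at chr8:110266938-110266987 (plus strand), Cfap44 at chr16:44394754-44394803 (plus strand), Cfap45 at chr1:172521093-172521142 (plus strand), Cfap61 at chr2:145934758-145934807 (plus strand), Spag16 at chr1:69826849-69826898 (plus strand), Cfap298 at chr16:90935006-90935055 (minus strand) and Bbs7 at chr3:36613479-36613528 (minus strand).

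Iqca: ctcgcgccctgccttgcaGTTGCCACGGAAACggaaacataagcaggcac
Hydin: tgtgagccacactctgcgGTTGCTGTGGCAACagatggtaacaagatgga
Cfap44: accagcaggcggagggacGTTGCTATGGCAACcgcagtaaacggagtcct
Cfap45: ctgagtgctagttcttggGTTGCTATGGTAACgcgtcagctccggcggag
Cfap61: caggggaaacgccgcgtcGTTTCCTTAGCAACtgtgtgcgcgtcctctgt
Spag16: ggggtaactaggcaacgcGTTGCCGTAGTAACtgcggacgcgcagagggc
Cfap298: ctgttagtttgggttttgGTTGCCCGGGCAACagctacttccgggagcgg
Bbs7: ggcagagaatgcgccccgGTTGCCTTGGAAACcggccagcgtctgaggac

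Of the genes shown, Cfap298 had the smallest slope among the motile ones (0.22) and Bbs7 was not called (0.13). The shorter pattern GTTGCC, which can lie within an X-box, was held by 15 of the 34 called motile members, 6 of the 11 others and 8 of 19 transport members, against 14.1% of all genes (12.5% of promoters). The forkhead pattern TGTTTAC was held by 3 of 34, 0 of 11 and 0 of 19, against 4.05% of all genes (3.65% of promoters). A match describes letters in the window and not binding. No entry was found for Cfap54, Cfap97, Dnah3, Foxj1, Ift122, Ift80, Ift81, Rsph1, Rsph4a and Spag1.

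The content of SCN neurons in a punch was scored as well. A score from 9 SCN neuron genes outside the members (Avp, Vip, Grp, Nms, Prok2, Six6, Lhx1, Gpr176 and Syt10), whose summed level ran from 78.5 CPM in SCN J1199 to 414 CPM in SCN J965, was fitted in the same way. By edgeR, 0 of 51 motile, 1 of 22 transport and 0 of 5 other genes were called, against 3.58% of 12047 genes (1.68% with a positive and 1.9% with a negative slope). At an unadjusted p under 0.05 these were 2 motile genes and 1 other, and DESeq2 called 0 of both. The transport gene was Ift80, an IFT-B subunit that ran from 14.9 to 25.2 CPM (median 20.2 CPM), with a slope of 0.21 log2 units per unit of score (SE 0.0473, adjusted p = 0.011). Its slope was 0.20 and no longer called without SCN J1199 and SCN J1140, the former being the lowest on this score. Foxj1 had a slope of 0.27 (SE 0.204) with an adjusted p of 0.60. Of the 51 motile slopes on this score 43 were above 0, with a median of 0.16 against 0.00 for all genes. On the Foxj1 slope, 8 of the 9 SCN neuron markers were above 0, with a median of 0.27. Beyond the slope of Foxj1 on the score, which was not called, whether the 2 measures vary together was not tested.

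The levels in the NAc and PFC could be compared for 42 members. These regions share a table, and 17 of the 42 were called between them (adjusted p below 0.05 with a fold of 1.2 or more), against 45.4% of all genes (23.7% higher and 21.7% lower in the NAc). Motile genes were higher in the NAc in 2 of 16 cases and lower in 6. Transport genes were higher in 3 of 21 and lower in 5, and Cfap20 was higher among the 5 others.

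The outer-arm dynein chain Dnah5 differed most. Over NAc libraries it ran from 0.204 to 3.13 CPM (median 0.631 CPM) and over PFC libraries from 2.15 to 8.26 CPM (median 5.21 CPM). The highest NAc value, in NAc J1199, passed the lowest PFC value, so the regions overlapped at their edges. The log2 difference, NAc minus PFC, was -2.17 (SE 0.271, adjusted p = 1.8e-09 by edgeR), in the same direction in 17 of 17 mice with both regions. Dnah9, its partner in the outer arm, was lower as well, with 0.489 to 3.27 CPM (median 1.70 CPM) in the NAc, 2.34 to 5.16 CPM (median 3.63 CPM) in the PFC and a difference of -1.06. NAc J1199, the library with the highest cortical marker sum, was also the one with the highest Dnah5 in the NAc.

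Dnah1, an inner-arm chain (chromosome 14, 31260375 to 31323896), went the other way. It ran from 3.74 to 7.58 CPM in the NAc (median 5.71 CPM) and from 1.62 to 3.73 CPM in the PFC (median 2.41 CPM), without overlap. The difference was 1.19 (SE 0.0949, adjusted p = 3.6e-15 by edgeR), in 17 of 17 mice. Tekt5 was higher in the NAc by 0.99 and the regulatory complex gene Drc3 lower (-0.72), as were Rsph9 (-0.75), Rsph3a (-0.57) and Cfap69 (-0.55). Among transport genes the IFT-B subunit Ift81 ran from 18.8 to 30.0 CPM in the NAc (median 23.3 CPM) and from 34.2 to 42.0 CPM in the PFC (median 37.1 CPM), without overlap and with a difference of -0.66 (SE 0.0471, adjusted p = 7.2e-17). The BBSome subunit Bbs2 was higher in the NAc by 0.74, in 17 of 17 mice, at a median of 9.37 CPM against 5.44 CPM. Ift46 (-0.38), Ift122 (-0.37), Ift22 (-0.32) and Ift172 (-0.31) were lower in the NAc, while Ift27 (0.32) and Bbs7 (0.28) were higher. Dnah1 and Ift81 were the only members whose ranges did not overlap, against 4.82% of all genes higher and 4.66% lower in the NAc without overlap. All 7 oligodendrocyte and all 7 striatal markers were higher in the NAc and all 6 cortical markers lower. The only choroid plexus marker held there was higher in the NAc (5.26). The only ependymal marker held there, Tppp3, was not called (0.10), and the part of the cell types in the members' differences was not tested.

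In the SCN, most motile genes held by both tables stood above the other regions. In a joint fit, 14 of 16 motile genes were higher in the SCN than in the NAc and 0 lower, against 33.1% of all genes higher and 31% lower (64.1% called). Of 21 transport genes 11 were higher and 2 lower. Against the PFC, 13 of 16 motile and 13 of 21 transport genes were higher, and 0 and 3 lower, against 33.7% and 31% of all genes (64.7% called). In both comparisons 0 of these 16 motile genes were lower by DESeq2 or by edgeR at an unadjusted p under 0.05. Of 15 listed motile genes outside the rule, 8 were higher and 4 lower in the SCN than in the NAc. Against the PFC, 10 of the 15 were higher and 3 lower. The median log2 difference was 0.70 for motile, 0.37 for transport and 0.02 for all genes against the NAc, and 0.59, 0.37 and 0.03 against the PFC. Both comparisons use the same SCN libraries, and region and deposited table cannot be told apart in them. The ependymal marker Tppp3 was also higher in the SCN, by 2.85 and 2.94, as were all 5 astrocyte markers in both comparisons. The 1 choroid plexus marker compared was higher by 0.72 and 5.98. Of 7 oligodendrocyte markers, 2 were higher than in the NAc and 7 than in the PFC, and 0 were lower. The part of these cell types in the members' differences was not tested.

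Rsph9 in the SCN did not overlap the other regions. SCN libraries held 12.8 to 31.2 CPM (median 16.7 CPM), NAc libraries 2.82 to 6.28 CPM (median 4.33 CPM) and PFC libraries 5.13 to 9.68 CPM (median 7.23 CPM). Its differences were 2.0 (SE 0.0862, adjusted p = 6.5e-31) and 1.25 (SE 0.0963, adjusted p = 1.3e-18 by edgeR). Rsph9 thus stood high in every SCN library while its slope on Foxj1 did not pass. Dnah1 likewise did not overlap, with 12.5 to 30.2 CPM in the SCN (median 19.9 CPM) and differences of 1.82 from the NAc and 3.0 from the PFC. Dnah9, at 3.33 to 18.7 CPM in the SCN (median 7.69 CPM), was higher by 2.36 and 1.30, and Drc3, at 3.18 to 12.5 CPM (median 7.21 CPM), by 1.54 and 0.82. Dnah5 ran from 1.93 to 15.9 CPM in the SCN (median 5.0 CPM). It was higher than in the NAc by 2.30, but its difference from the PFC was 0.12 (SE 0.285, adjusted p = 0.70). Tekt5 was not called against the NAc (-0.21, SE 0.180) and was higher than in the PFC by 0.77, and Cfap69 was called in neither comparison (0.29 and -0.26).

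**Figure D4:**
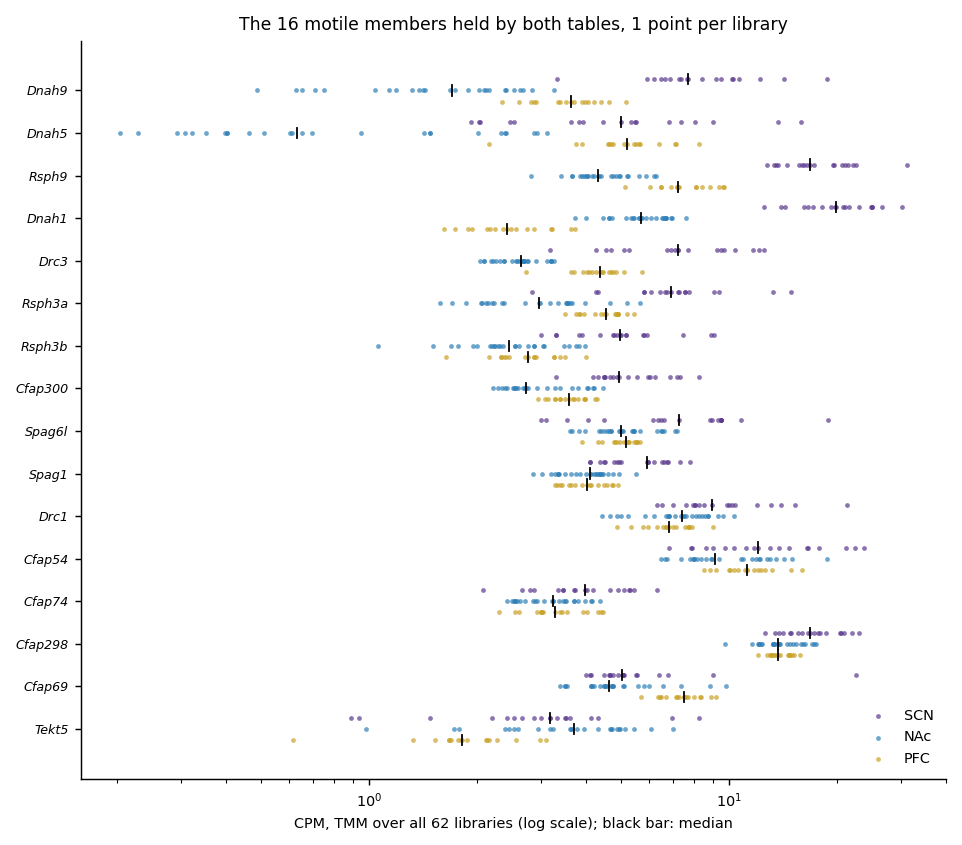
Each point is a library's CPM on a log scale for the 16 motile genes held by both tables, in purple for the SCN, blue for the NAc and yellow for the PFC, with a black bar at the median. Rsph9 and Dnah1 in the SCN lie apart from both other regions, whereas the medians of Dnah5 are 0.631 CPM in the NAc, 5.0 CPM for the SCN and 5.21 CPM for the PFC.

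Transport genes differed in both directions. The small IFT-B GTPase Ift22 ran from 17.5 to 28.4 CPM in the SCN (median 22.2 CPM), above all NAc libraries (8.08 to 13.7 CPM, median 10.6 CPM) and all PFC libraries (10.5 to 17.0 CPM, median 13.3 CPM). Its differences were 1.09 (SE 0.0532, adjusted p = 3.4e-28) and 0.77 (SE 0.0597, adjusted p = 1.5e-18 by edgeR). The IFT-A subunit Ift43, with medians of 4.67 CPM (SCN), 2.19 CPM (NAc) and 1.98 CPM (PFC), was higher by 1.09 and 1.21, and Ift80 by 0.54 and 0.80. Ift57, an IFT-B subunit, was lower in the SCN, with 13.4 to 21.4 CPM (median 16.8 CPM) against 20.8 to 31.9 CPM in the NAc (median 26.02 CPM) and 19.5 to 27.0 CPM in the PFC (median 22.1 CPM). Its differences were -0.63 in 19 of 19 mice and -0.42 in 12 of 12, and in 18 of 18 and 11 of 11 without the pair of J1165. Bbs5, a BBSome subunit, was also called lower in both, by -0.49 in 17 of 19 mice and by -0.32 in only 7 of 12. Ift20 was lower than in the PFC (-0.26, at the fold threshold, in 10 of 12 mice).

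**Figure D5:**
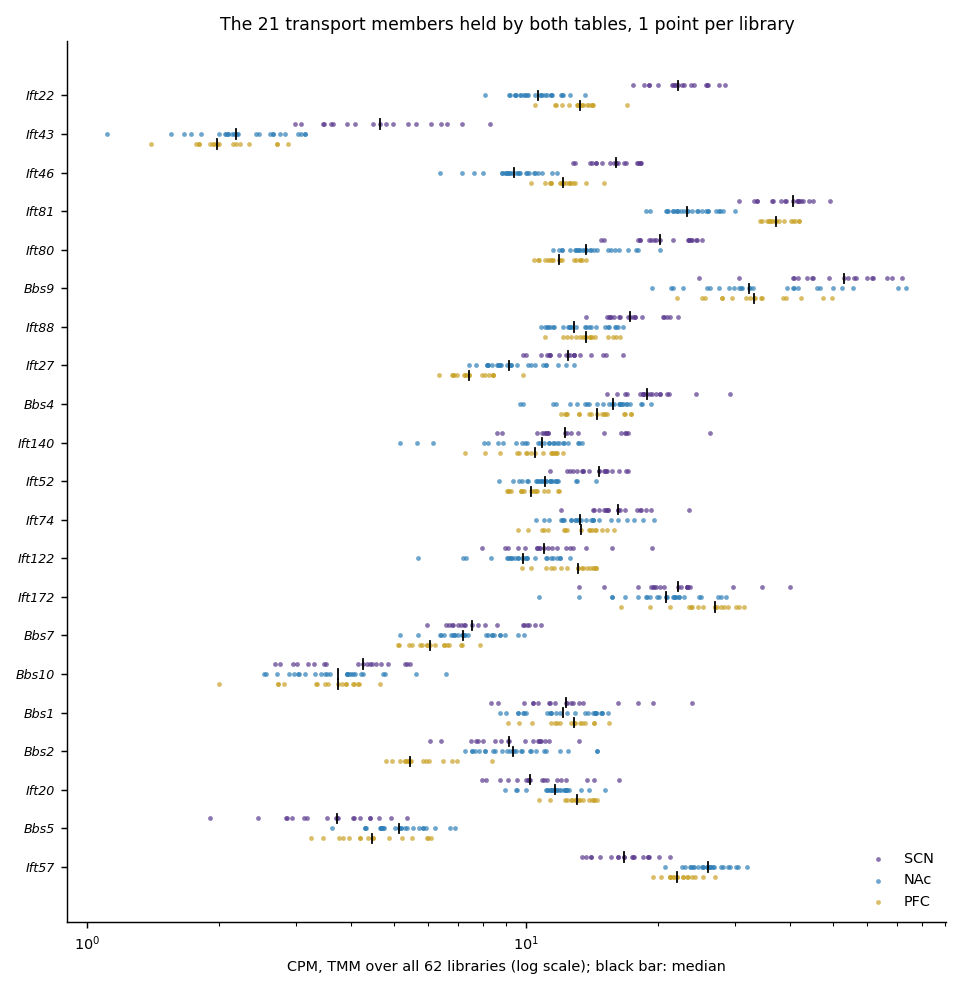
Each point is a library's CPM on a log scale for the 21 transport genes held by both tables, coloured by region as before and ordered by the difference between SCN and NAc, with a black bar at the median. Ift22 at the top is higher in the SCN without overlap, Ift57 at the bottom is lower in the SCN, and most genes in between overlap among regions.

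In all, 6 members in the SCN lay above every NAc library (Dnah1, Dnah9, Rsph9, Ift22, Ift46 and Ift81) and 7 above every PFC library (Dnah1, Rsph9, Ift22, Ift27, Ift43, Ift80 and Spag7), against 5.63% and 8.96% of all genes, and 0 members lay below every library of either, against 7.54% and 11.7%. The sum of the 16 motile genes was 102 to 222 CPM over SCN libraries (median 139 CPM), 66.3 to 87.3 CPM over NAc libraries (median 78.5 CPM) and 82.5 to 99.3 CPM over PFC libraries (median 87.7 CPM). The sum of the 21 transport genes was 307 to 415 CPM, 257 to 315 CPM and 274 to 306 CPM. Among the 5 others, Spag7 was higher in the SCN than in either region (0.41 and 0.56). Spag9, a scaffold of the JNK pathway with the highest median of all members by CPM (202 CPM in the SCN), was lower than in the PFC (-0.26, at the fold threshold), and Cfap20 lower than in the NAc (-0.27). Cfap36 and Cfap97 were called in no comparison.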

How the data were processed

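The authors punched the SCN, NAc and PFC of individual mice at ZT6 and made libraries with a low-input SmartSeq HT kit. Paired reads were aligned with HISAT2 to GRCm38. HTSeq gene counts, labelled as filtered and unnormalized, were deposited with the SCN apart from the other regions. Quality was checked with FastQC 0.11.7. The strand setting is not given in the sources used here. GENCODE M21 gave symbols, gene types and exon lengths, and promoters from RefSeq on GRCm38.p6. Members and gene lists were chosen with earlier results of these data known.

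Libraries were grouped by region from the labels. Levels are CPM with TMM factors from all 62 libraries, set across separately deposited tables. Fits used edgeR 4.0.16 (R 4.3.3) over whole tables with filterByExpr and Benjamini-Hochberg adjustment. Region differences were called at an adjusted p under 0.05 and a fold of at least 1.2, the study's thresholds, and slopes at an adjusted p under 0.05. SCN comparisons used 11133 shared genes in 1 fit. The Foxj1 covariate was its log2 CPM with a prior count of 2. Mice up to J1021 and from J1140 were also fitted alone. DESeq2 1.42.0 was an alternative, beside other size factors, filters, prior counts, ranks, left-out libraries and the mouse number as a block. No pair of libraries agreed within sampling noise; the lowest chi-square per gene was 13.1. Depth is given with the libraries, and low-count values carry more counting error.

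By the labels a mouse number names 1 animal, although the Xist of SCN J1165 goes against the other libraries of that number. The correlation of a mouse's deviations from the region means had a median of 0.006 over 17 mice for the NAc and PFC (-0.449 to 0.272), 0.0014 over 19 for the SCN and NAc (-0.392 to 0.509) and 0.0988 over 12 for the SCN and PFC (-0.282 to 0.390).

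Members given in full were Foxj1, those the rule lists by name, Iqca, the 3 highest and lowest per kb in each group, and the 5 with the largest called change in each direction per comparison with 1 direction over all mice that had both regions. Others were chosen after their values were seen. In simulated counts with 200 changed genes, edgeR recovered 188 for the NAc against the PFC (11569 genes, 10 false calls) and 181 for the SCN against the NAc (11133 genes, 7 false). It recovered 179 for the Foxj1 slope (12047 genes, 13 false) and 177 for the SCN neuron score (12047 genes, 9 false). DESeq2 recovered 190, 187, 187 and 183 in the same order. Its false calls were more, at 16, 11, 33 and 28. Effects of CRD and sex were not analysed here. Other calculations used Python 3.11.15, numpy 2.4.6, pandas 2.3.3 and scipy 1.17.1.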

Additional observations from a re-analysis of the deposited data

How the results depend on the processing

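The numbers of members called between regions changed little: 17 for the NAc against the PFC (15 to 22 over the alternatives), 29 for the SCN against the NAc (26 to 30) and 31 for the SCN against the PFC (28 to 31). With the mouse number as a replicate block they were 18, 30 and 29. For the SCN against the PFC, the block ended the calls of Spag9 (-0.25) and Cfap298 (0.26). Without the pair of J1165, a choice made after the data had been seen, the block gave 30 for the SCN against either region, Spag9 was at -0.24 and Cfap20 against the NAc at -0.23, both no longer called, and Tekt5 was called lower than in the NAc (-0.46). The count of 39 members on the Foxj1 slope moved to 9 in mice up to J1021 and 24 in mice from J1140, with 7 and 12 libraries fitted, and leaving out each SCN library in turn gave 32 to 39. The single member called on the SCN neuron score moved to 0 in mice up to J1021, without SCN J1199 and SCN J1140, and when the 2 most distant libraries on that score were dropped, and the cause was not tested. DESeq2 called 17, 29, 31 and 41 members in the 3 region comparisons and on the Foxj1 slope, and 1 on the neuron score. Leaving out NAc J1019, added after the data had been seen as was leaving out single SCN libraries, gave 17 and 29.

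Signs under the alternatives were followed for only part of the members. For the region comparisons these were the members with the largest called changes and the same direction in all mice that had both regions. On the Foxj1 slope they were the members with the steepest called slopes and the genes the rule lists by name. No called member that was followed changed sign, Ift80 on the neuron score included. For other called members named in the text, signs were not followed across all alternatives. On the neuron score, signs were followed only for Ift80, Iqca and the genes the rule lists by name. Among these, slopes of uncalled members changed sign in 13 cases. In mice up to J1021 they were -0.03 for Foxj1, -0.07 for Ccdc153, -0.17 for Tmem212, -0.18 for Mlf1 and -0.03 for Hydin. Without those 2 libraries they were -0.14 for Ccdc153, -0.29 for Tmem212, -0.01 for Dynlrb2 and -0.11 for Mlf1. Tmem212 was at -0.01 by rank and -0.13 without SCN J1199 and SCN J1140, and 1110017D15Rik at 0.32 in mice from J1140 and 0.06 with the range as a term. Scaled to nuclear protein-coding counts alone, median levels moved to 25.9 CPM for Foxj1 in the SCN and to 46.8 CPM (SCN), 31.4 CPM (NAc) and 31.7 CPM (PFC) for Ift88, since that scaling drops mitochondrial and ribosomal RNA from the total. Counts of a few reads, as for Iqca and Tmem212 in their lowest libraries, limit the precision of their slopes.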
